A study of Drosophila melanogaster with 2 samples.

Results

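Binding of the homeobox protein CG11617 was described at 10 Drosophila genes that encode proteins with an HMG box, namely HmgD, HmgZ, Dsp1, Ssrp, bbx, Sox14, Sox102F, SoxN, D and Sox15, out of 13945 protein-coding genes on 6 chromosome arms. The genes were chosen by family membership and with earlier results of the same lists known, in which HmgZ and bbx carried high signals, so their values are a description and carry no test. The data came from chromatin immunoprecipitation and sequencing (ChIP-seq) with an anti-GFP antibody on whole adult flies, males and females pooled, of unknown age. The flies were of 1 transgenic line that stably expresses CG11617 with GFP at the C terminus, and the labels give no promoter or cell type for its expression. The 1 group held 2 biological replicates, numbered 2 and 3 in the labels, and a control experiment that the labels name was not analysed here. With whole flies, a site bound in few cells and one bound weakly in many cannot be told apart.

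Proteins with an HMG box bind the minor groove of DNA and bend it. The HMGB-type proteins do so with little preference for sequence and act as general chromatin proteins, whereas Sox proteins recognise a short AT-rich site and act as developmental regulators, often beside a partner factor. CG11617 belongs to another class of DNA-binding protein, the homeodomain proteins, and within them to the TALE class. Many homeodomain proteins recognise sites with a TAAT core, but the site that CG11617 itself prefers was not determined here.

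The authors deposited candidate entries for replicate 2, for replicate 3 and for both pooled. They also deposited an optimal set, cut at a threshold of the irreproducible discovery rate (IDR), which measures how well ranks agree between replicates. The IDR entries described below had the same rank in this set as in the pooled list. Membership of the set therefore does not by itself show that a single entry agreed between the replicates. The IDR set held 5777 entries with a pooled signal between 162.9 and 5197, while each candidate list held 30000 entries and includes background. Each signal is the authors' own score of an entry, it is not scaled between lists, and it serves here to rank entries within a list, rank 1 being the highest. An entry was counted at a transcription start site (TSS) when its summit lay within 500 bp of it, and in a gene body when its summit lay in the annotated span of the gene. Distances below are signed in the direction of transcription, so that negative values lie upstream.

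The summit sequences of the entries at bbx, Dsp1, Sox102F and SoxN show the DNA under 5 IDR entries of different signal and under 1 candidate outside the IDR set. Each is 101 bp of dm6, plus strand, 5′ to 3′, centred on the summit of the pooled signal. Capitals mark matches on either strand to the 8 motifs searched, and each motif name refers to a match of sequence alone. The first is the strongest bbx entry at X:21367783-21367883, where TAATTA, the homeodomain core, overlaps TTTATA, which is the TATA box TATAAA on the minus strand. The next is the second bbx entry at X:21366484-21366584, with matches to the TATA box and the homeodomain core. They are followed by the Dsp1 intron at X:16335316-16335416 and the Dsp1 promoter at X:16333177-16333277, in which the capitals are CGATA, part of the BEAF-32 site, on the minus strand. The last 2 are the Sox102F entry at 4:807586-807686 and the strongest SoxN candidate at 2L:8825401-8825501, which is not in the IDR set. The latter 2 and the Dsp1 intron held none of the motifs.
bbx strongest: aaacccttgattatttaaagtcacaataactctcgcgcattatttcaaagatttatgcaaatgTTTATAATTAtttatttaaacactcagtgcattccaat
bbx second: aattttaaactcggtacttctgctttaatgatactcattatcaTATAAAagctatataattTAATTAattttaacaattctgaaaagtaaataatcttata
Dsp1 intron: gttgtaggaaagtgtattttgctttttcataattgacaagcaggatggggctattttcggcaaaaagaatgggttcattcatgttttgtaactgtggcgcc
Dsp1 promoter: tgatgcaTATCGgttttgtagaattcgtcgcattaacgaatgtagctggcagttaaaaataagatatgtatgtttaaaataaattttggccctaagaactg
Sox102F: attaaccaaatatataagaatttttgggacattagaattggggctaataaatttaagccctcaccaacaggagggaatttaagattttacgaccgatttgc
SoxN candidate: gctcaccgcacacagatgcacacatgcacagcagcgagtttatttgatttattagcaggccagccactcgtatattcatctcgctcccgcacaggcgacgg

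The IDR set held a summit within 500 bp of a TSS for 6 of the 10 genes (HmgD, HmgZ, Dsp1, bbx, Sox14 and Sox102F), against 30.0% of all protein-coding genes. Counting gene bodies as well left the number at 6 of 10, against 32.9% of all genes. Counted by start site, 8 of the 23 TSSs of these genes had an IDR summit within 500 bp, against 28.1% of all TSSs. A candidate entry of the pooled list lay at a TSS for 9 of 10 genes, against 61.6% of all genes, and at a TSS or in the body also for 9 of 10, against 65.3%. Because the genes were chosen with these entries known, nothing is read from the higher shares.

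The signals spanned a wide range among the genes. HmgD and HmgZ shared a strongest entry of 3006, bbx had 2327 and Sox14 had 2123, all in the top 30 of the pooled list by rank (5, 20 and 29). Dsp1 followed at 641, rank 640, and Sox102F at 230.5, rank 3494, which is under the IDR median of 262.5. SoxN, D and Ssrp had candidates of 134.8, 121.7 and 75.9, all under the lowest signal of the IDR set, and Sox15 had no entry in any list. Among the 4587 genes with an IDR summit at a TSS or in the body, HmgD and HmgZ stood at position 6 by strongest entry, bbx at 24, Sox14 at 33, Dsp1 at 792 and Sox102F at 3264.

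**Figure D1:**
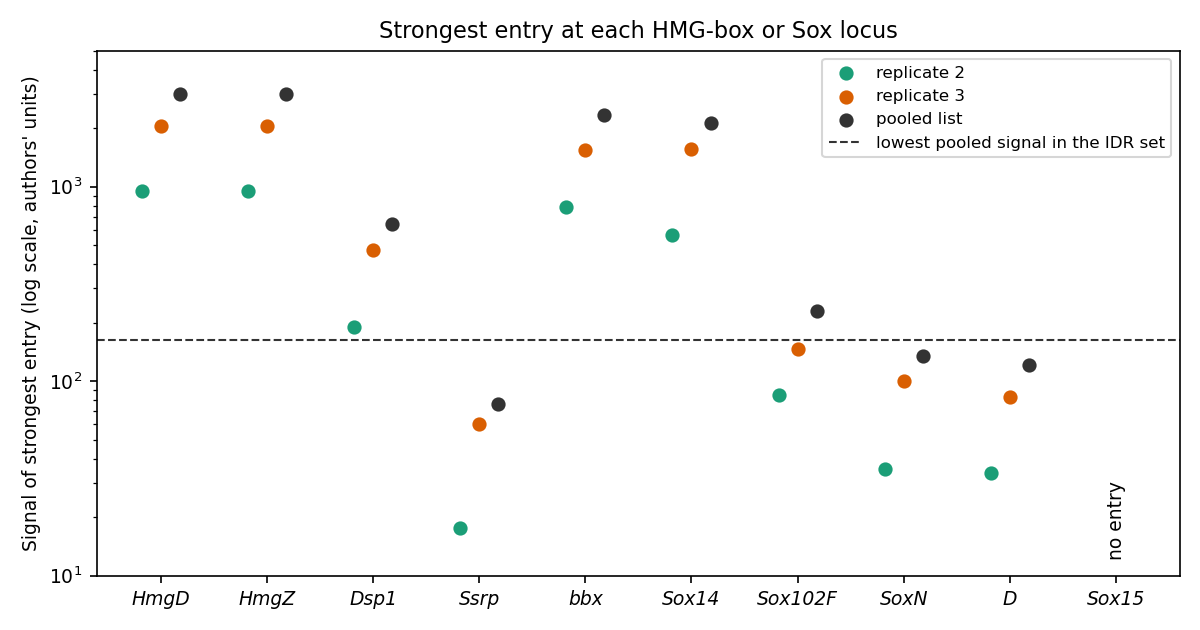
Signal of the strongest entry at each of the 10 genes (log scale, authors' units) in the lists of replicate 2, replicate 3 and the pooled replicates; the dashed line is the lowest pooled signal in the IDR set. HmgD, HmgZ, bbx and Sox14 are at 2123 or above in the pooled list, SoxN, D and Ssrp are under the line, and Sox15 has no entry.

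**Figure D2:**
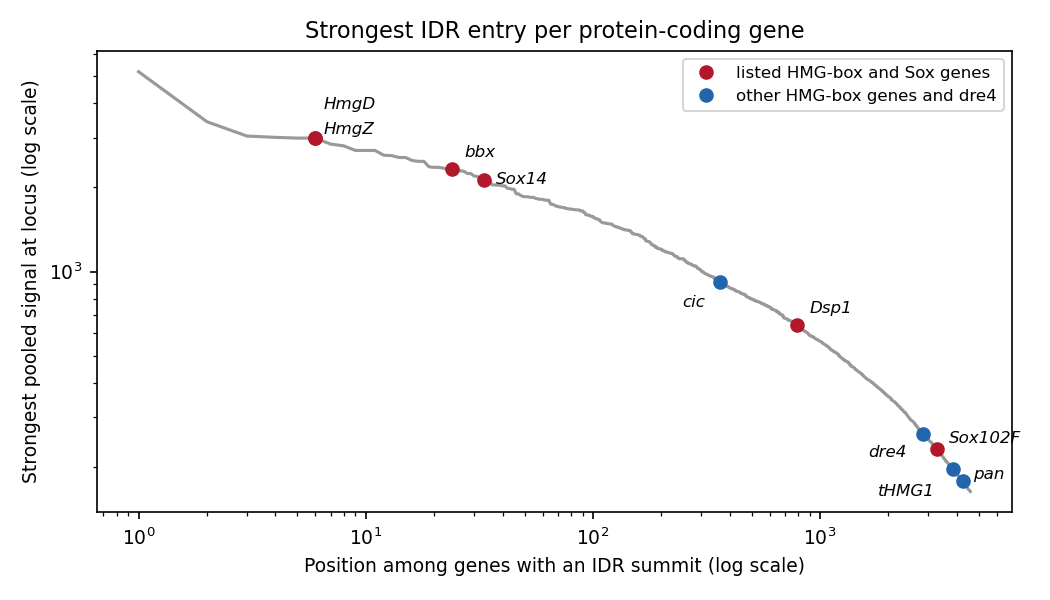
Strongest IDR signal at a TSS or in the body of each of 4587 protein-coding genes, in descending order (both axes log scale). Red points are the listed genes with an IDR summit and blue points are pan, cic, tHMG1 and dre4; HmgD and HmgZ share position 6, and Sox102F is at 3264.

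HmgD and HmgZ encode a pair of small, abundant HMGB-type proteins that bend DNA. The genes lie on arm 2R on opposite strands and overlap by 6404 bp: HmgD (FBgn0004362) runs on the plus strand from 21701458 to 21716727 and HmgZ (FBgn0010228) on the minus strand from 21697488 to 21707861. Since they overlap, no sequence lies between them, and an entry in the overlap cannot be given to either gene from its position. The locus of 19240 bp held 7 IDR entries in 5 separate regions, and 4 of the 7 lay in the overlap. All 7 summits were intronic in each gene that held them.

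The strongest entry of the pair spanned 21702789 to 21703802 with its summit at 21703434. Its signal was 3006 in the pooled list (rank 5), 946 in replicate 2 (rank 4) and 2054 in replicate 3 (rank 5). The replicate summits were 30 bp apart. The next entry above in the pooled list, at 3025, had its nearest TSS at CG14100, and the next below, at 2861, at the hexokinase gene Hex-A. At 1014 bp the entry was wider than 97.7% of IDR entries, and it held 66.5% of the summed IDR signal of the locus, 9.06-fold the next entry. The summit did not lie at a promoter by the 500 bp rule. It was 604 bp upstream of the HmgZ start site at 21702830, from which 2 of the 4 HmgZ transcripts begin. It was also 1976 bp downstream of the most 5′ HmgD start site. The interval of the entry nevertheless covers the HmgZ start site at 21702830.

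The other 6 entries at the locus were far weaker. At the internal HmgD start site 21713356, which 2 transcripts use, an entry of 331.8 (rank 2023) had its summit 98 bp downstream, with 112.0 in replicate 2 and 217.8 in replicate 3. A second summit at 309 bp downstream of the same site had 180.9 in the pooled list (rank 4979), 35.8 in replicate 2 and 137.4 in replicate 3, and it also lay within 500 bp of the next HmgD start site. At the HmgZ start site 21704501, the pair of summits at -106 and -305 bp shared 1 interval and had pooled signals of 242.7 (rank 3257) and 200.5 (rank 4313). Their nearest summits had 47.1 and 52.7 in replicate 2 and 192.4 and 107.8 in replicate 3, so the order of the pair differed between the replicates. The last 2 entries lay outside the 500 bp window of every start site. The one at 21700785, in HmgZ, lay 673 bp upstream of the most 5′ HmgD start site, its nearest TSS. It had 319.9 in the pooled list (rank 2150), 90.8 in replicate 2 and 243.6 in replicate 3. The one at 21706642 had 239.7 (rank 3312), 76.6 and 152.6 in the same lists.

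**Figure D3:**
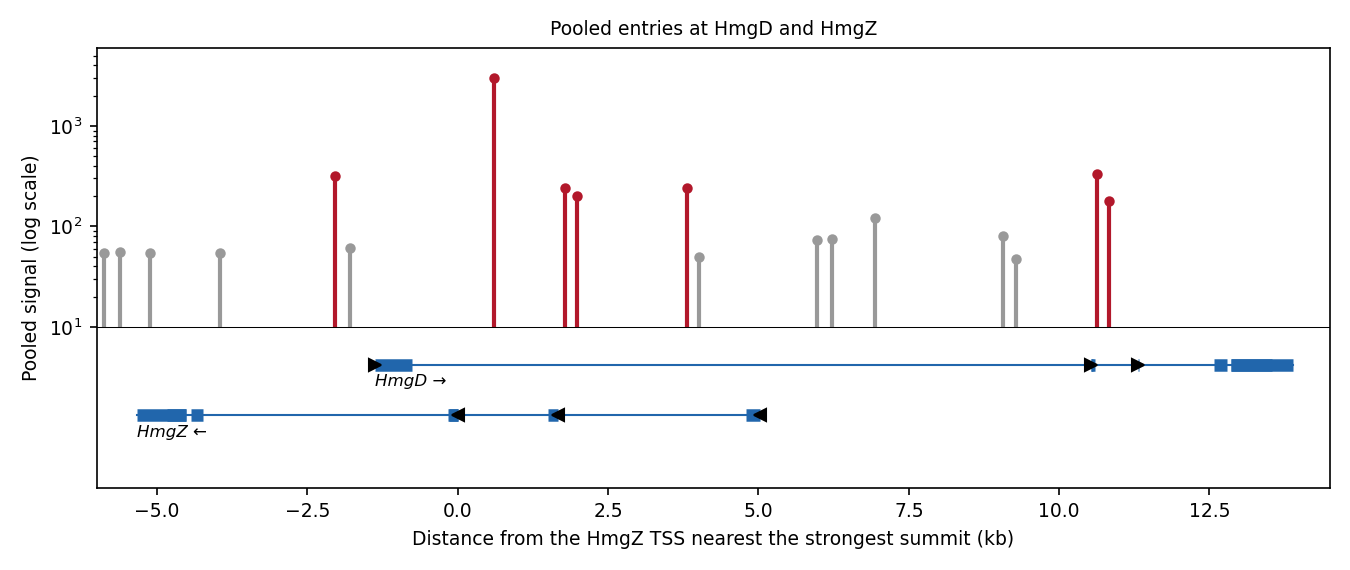
Pooled entries along the HmgD and HmgZ locus by distance from an HmgZ TSS (kb; positive values lie upstream of HmgZ), with signal on a log scale; red entries are in the IDR set and grey ones are other candidates. Blue boxes are exons and black triangles are TSSs pointing in the direction of transcription. The entry of 3006 stands above all others, between the first 2 HmgZ start sites shown.

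Both genes had many entries. HmgD, with 6 IDR entries, was among 82 genes (0.588% of all) with as many or more, and HmgZ, with 5, among 131 (0.939%). Of these entries, 4 were shared by both genes, and summits in 1 interval were counted separately. Counts per gene, here and at bbx, were not adjusted for gene length, and longer genes can hold more entries. The candidate lists gave 13 pooled entries for HmgD and 9 for HmgZ, with 14 and 10 in replicate 2 and 16 and 11 in replicate 3. By the signal at their start sites alone the pair ranked much lower. HmgD stood at position 1909 and HmgZ at 2750 of the 8588 genes with a pooled entry at a TSS. This ranking goes by summits, so it leaves out the strongest entry, whose interval covers an HmgZ start site.

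Dsp1 (FBgn0278608), the third HMGB-type gene, encodes a corepressor that works with Dorsal and has been tied to Polycomb-group recruitment. It lies on the X chromosome from 16333612 to 16340624 on the plus strand. Its strongest entry was intronic, with its summit at 16335366, and had 641 in the pooled list (rank 640), 169.5 in replicate 2 (rank 941) and 470.3 in replicate 3 (rank 562). This summit lay 818 bp upstream of the second Dsp1 start site (16336184), outside the 500 bp window. All 3 lists placed it within 13 bp of the same base.

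The Dsp1 promoter entry that met the 500 bp rule was a secondary summit. It lay at 16333227, 385 bp upstream of the main start site (16333612), from which 6 of the transcripts begin, and had 255.5 in the pooled list (rank 3026). The nearest replicate summits had 189.0 in replicate 2 (rank 768) and 246.0 in replicate 3 (rank 1801). The same interval, 16332697 to 16333277, held a much stronger summit at 16332993, with 1268 in the pooled list (rank 141), 407.6 in replicate 2 (rank 133) and 867 in replicate 3 (rank 141). That summit was 619 bp upstream of Dsp1, outside the rule, and lay in an intron of CG9921, the divergent neighbour, 607 bp from its start site at 16333600. The secondary summit was itself 373 bp from that CG9921 start site, so the promoter signal at Dsp1 cannot be told apart from that of CG9921.

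**Figure D4:**
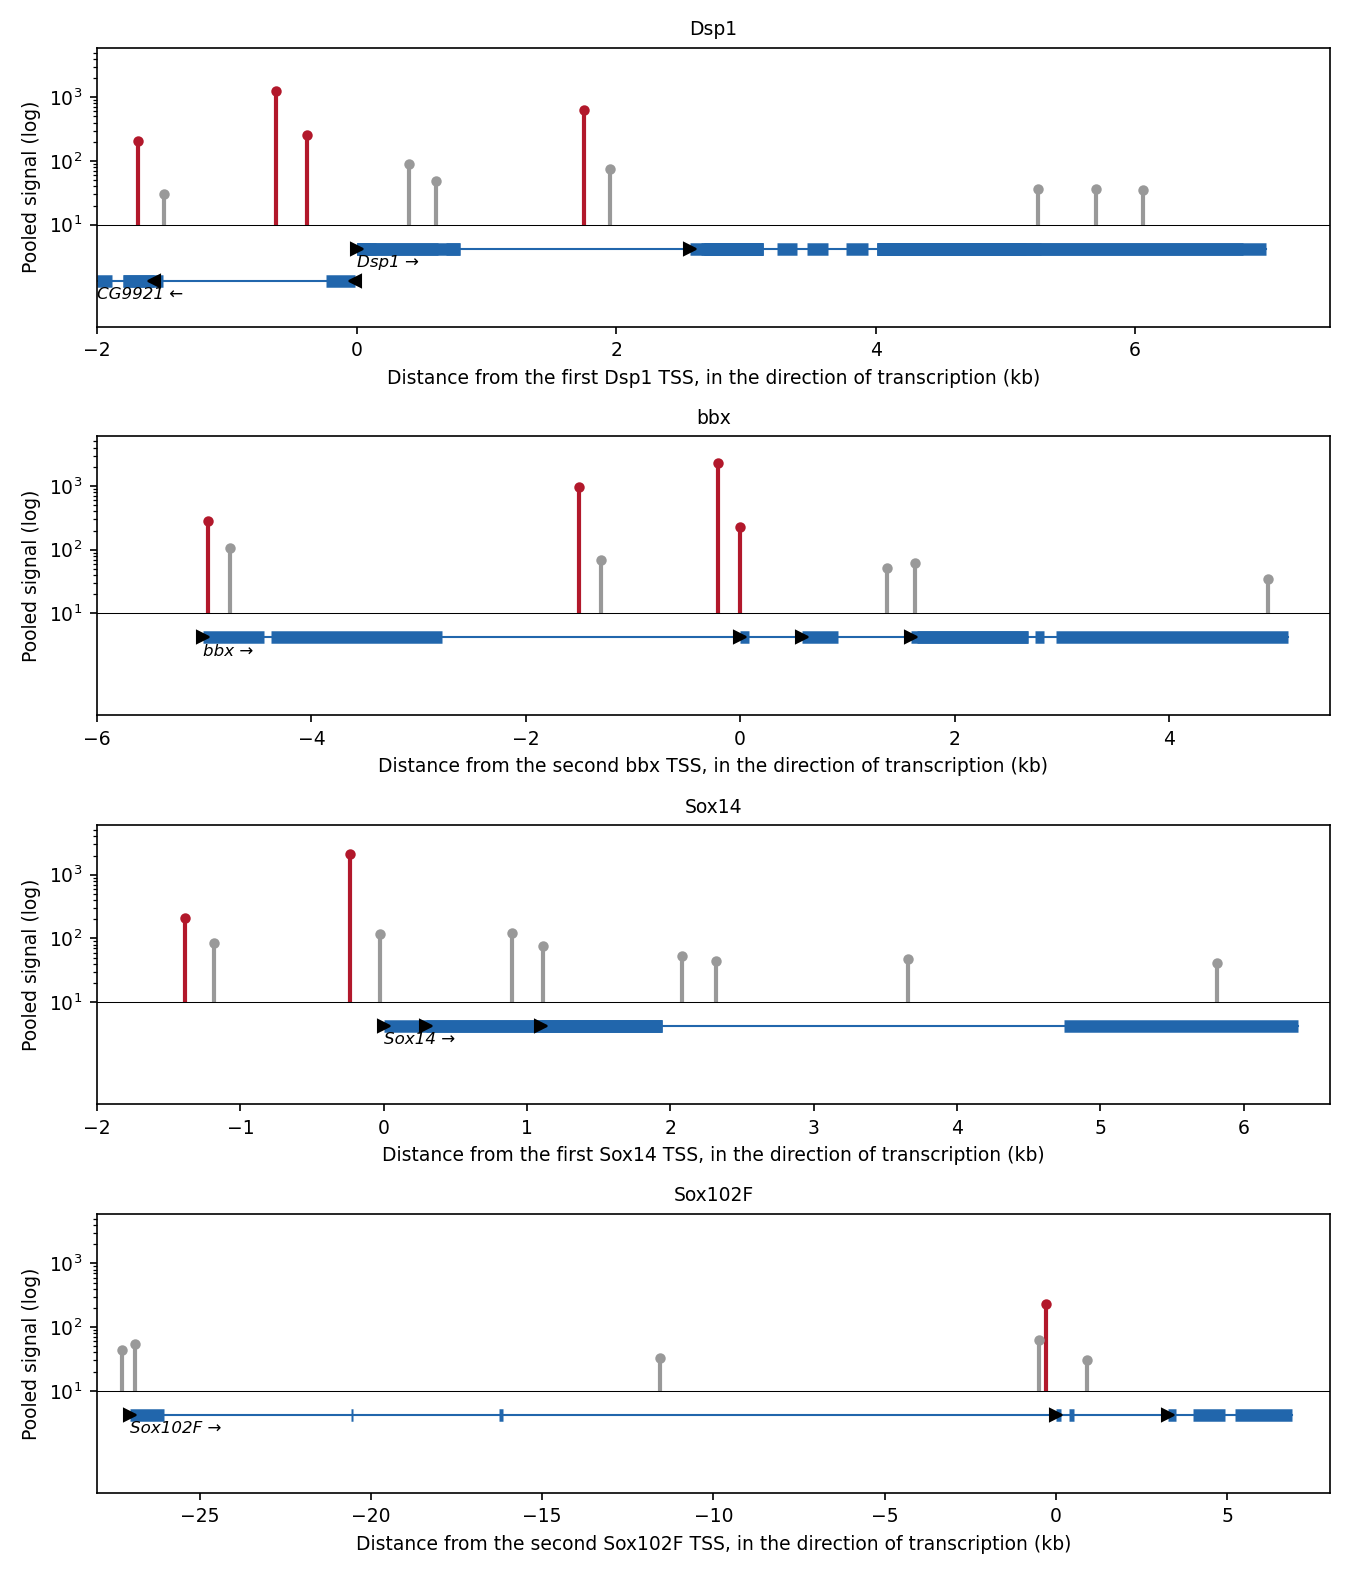
Pooled entries at Dsp1, bbx, Sox14 and Sox102F by distance from the TSS named under each panel (kb, direction of transcription to the right), with signal on a log scale; red entries are in the IDR set and grey ones are other candidates. Blue boxes are exons and triangles are TSSs. The strongest entry drawn in the Dsp1 panel, 1268, lies in CG9921 and is not counted for Dsp1; the bbx entry of 2327 and the Sox14 entry of 2123 lie just upstream of a TSS.

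Ssrp (FBgn0010278) encodes the HMG-box subunit of the chromatin complex FACT. It lies on arm 2R from 23806361 to 23809004 on the minus strand and had no IDR entry. The 1 pooled candidate lay 115 bp upstream of its start site with 75.9 (rank 13387). Replicate 2 had candidates of 15.2 and 17.6 at the promoter and replicate 3 had 1 of 60.0. The nearest IDR summit was 31021 bp away. The gene for the other FACT subunit, dre4, had an IDR entry 170 bp upstream of its start site with 262.6 in the pooled list (rank 2884), 69.9 in replicate 2 and 195.1 in replicate 3. The 2 subunits of FACT were on opposite sides of the IDR limit, and the difference was not tested.

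bbx (FBgn0024251), named bobby sox, encodes an HMG-box protein that stands apart from the Sox groups. It lies on the X chromosome from 21363028 to 21373145 on the plus strand, has 4 start sites and shares its whole annotated span and its first start site with waw, a mitochondrial translation factor gene. The strongest entry, whose sequence is shown above, had its summit at 21367833, 206 bp upstream of the second bbx start site (21368039), which is not a waw start site. Its signal was 2327 in the pooled list (rank 20), 785 in replicate 2 (rank 16) and 1545 in replicate 3 (rank 24), and the replicate summits were 1 bp apart. At 1097 bp it was wider than 98.2% of IDR entries. The entries next to it in rank had their nearest TSS at gish, a casein kinase gene (2345), and at l(2)k01209 (2297).

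The same interval held a second bbx summit 6 bp upstream of that start site, with 227.9 in the pooled list (rank 3575) and 77.2 in replicate 3 (rank 9106). Replicate 2 had no summit within 100 bp of it. A separate entry 1505 bp upstream of the start site, in the intron, had 963 in the pooled list (rank 260), 302.7 in replicate 2 (rank 272) and 669.5 in replicate 3 (rank 252). The ranks of this entry were alike in all 3 lists. At the first start site, which is also that of waw, the summit lay 50 bp downstream with 284.2 in the pooled list (rank 2571), 72.3 in replicate 2 (rank 3803) and 217 in replicate 3 (rank 2211). The 4 IDR entries put bbx among 251 genes (1.80% of all) with as many or more. By signal at a TSS bbx stood at position 13 of 8588 genes.

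Sox14 (FBgn0005612), of the SoxC group, is an ecdysone-induced gene that is needed for pruning of dendrites at metamorphosis. It lies on arm 2R from 23978801 to 23985177 on the plus strand and had 1 IDR entry, from 23978215 to 23978977. Its summit at 23978565 lay 236 bp upstream of the first start site. The signal was 2123 in the pooled list (rank 29), 567 in replicate 2 (rank 49) and 1558 in replicate 3 (rank 23). The summits of replicate 2 and of the pooled list were at the same base, and that of replicate 3 was 27 bp away. The gene held 7 further pooled candidates, none in the IDR set, between 41.2 and 121.9. The highest of them lay 201 bp upstream of the third start site. By signal at a TSS Sox14 stood at position 21 of 8588.

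Sox102F (FBgn0039938), the SoxD-group gene, lies on chromosome 4 from 800436 to 834393 on the minus strand. Its single IDR entry had its summit at 807636, in an intron and 289 bp upstream of the internal start site 807347, which 2 transcripts use. The signal was 230.5 in the pooled list (rank 3494), 84.5 in replicate 2 (rank 2990) and 145.7 in replicate 3 (rank 4089). It was 1 of 21 IDR entries on the small chromosome 4, which also holds pan. At the most 5′ start site, 834393, the candidates had 54.1 and 43.8 in the pooled list and were not in the IDR set.

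SoxN (FBgn0029123) and D (Dichaete, FBgn0000411) are the SoxB-group genes of the list and act together in the early nervous system. SoxN lies on 2L from 8825645 to 8829670 on the plus strand, and its stronger candidate, 194 bp upstream of the start site, had 134.8 in the pooled list (rank 7310), 35.3 in replicate 2 (rank 9980) and 99.8 in replicate 3 (rank 6798). D lies on 3L from 14175610 to 14178620 on the minus strand, and its stronger candidate, 204 bp upstream of the internal start site and in the 5′ UTR of the longer transcripts, had 121.7 in the pooled list (rank 8221), 33.5 in replicate 2 (rank 10559) and 83.3 in replicate 3 (rank 8372). The genes had 2 candidates each in every list. The nearest IDR summit was 85428 bp from the SoxN start site, and 12326 bp from that of D.

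Sox15 (FBgn0005613), the SoxF-group gene, was the only one of the 10 with no entry in any of the 4 lists at its start site or over its body, which runs on arm 2R from 14201390 to 14212413 on the minus strand. The nearest IDR summit lay 2542 bp from its start site with 265, and its nearest TSS was that of RpS23, a ribosomal protein gene.

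A further 10 genes of the HMG-box superfamily were counted, from a list that is not complete. Of these, 3 had an IDR summit at a TSS (30.0% of all genes did), and 7 had a pooled candidate there (61.6% of all genes did). pan, the TCF of the Wingless pathway, had 176.9 (rank 5145) 14 bp downstream of a start site. cic, the repressor capicua, had 4 IDR entries, the promoter one at 196.2 and the strongest, in an intron, at 919.5 (rank 288). No entry of replicate 2 overlapped the promoter one. Another cic summit in the IDR set, of 267.7, lay 503 bp downstream of the same start site, outside the 500 bp rule. tHMG1, a male germline gene, had 196.9 (rank 4422) 367 bp upstream, and that summit was 23 bp from the start site of CCT1. No entry of these 10 genes reached the signals of HmgD, HmgZ, bbx and Sox14. Since the listed genes were chosen with the high signals of HmgZ and bbx known, nothing is read from this. Hmg-2, which was on neither list, had a strongest IDR signal of 1282 at a TSS or in the body, above that of cic. The genes Sox21a, Sox21b, Sox100B, TFAM, Bap111, polybromo and tHMG2 had no IDR summit at a TSS or in the body.

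The replicates were compared over the 15 IDR entries of the listed genes. Over all 5760 IDR entries found in both replicates the signal in replicate 3 was 2.21-fold that in replicate 2 at the median, a log2 ratio of 1.14 with an SD of 0.42. Relative to that median, the strongest HmgD and HmgZ entry had a log2 ratio of -0.02, the strongest bbx entry -0.17 and the Sox14 entry 0.32. The Sox102F entry had -0.36, and 12 of the 15 were within 1 SD. The share of all IDR entries within 1 SD was not computed, so nothing is read from this count. The 3 others were above it. They were the pair at the HmgZ start site and the first bbx promoter entry. Where several summits shared 1 interval or lay in overlapping ones, matching by overlap took the strongest of them in each replicate. The paired summits at start sites of HmgZ, HmgD and bbx therefore took the same values, so the 15 ratios are not all separate. The Dsp1 promoter entry took the values of the stronger summit in CG9921. Matching by nearest summit within 100 bp gave the Dsp1 promoter a log2 ratio of -0.77 relative to the median, the lowest of the 14 entries that could be matched. It gave the pair at the HmgZ start site 0.88 and -0.11, and the second summit at the internal HmgD start site 0.79. The first bbx promoter entry had 0.44 by this matching. By entry, 14 of the 15 had a summit of each replicate within 100 bp of the pooled summit, against 92.2% of all IDR entries. By gene, the strongest summits of the replicates lay within 100 bp of each other at 7 of 9 genes. HmgD and HmgZ share their strongest entry, which is counted for both. The 9 genes include Ssrp, SoxN and D, which have candidates only, and no share over all genes was computed. At Ssrp they were 326 bp apart. At Dsp1 they were 2167 bp apart, since the strongest entry was the promoter one in replicate 2 and the intronic one in replicate 3.

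**Figure D5:**
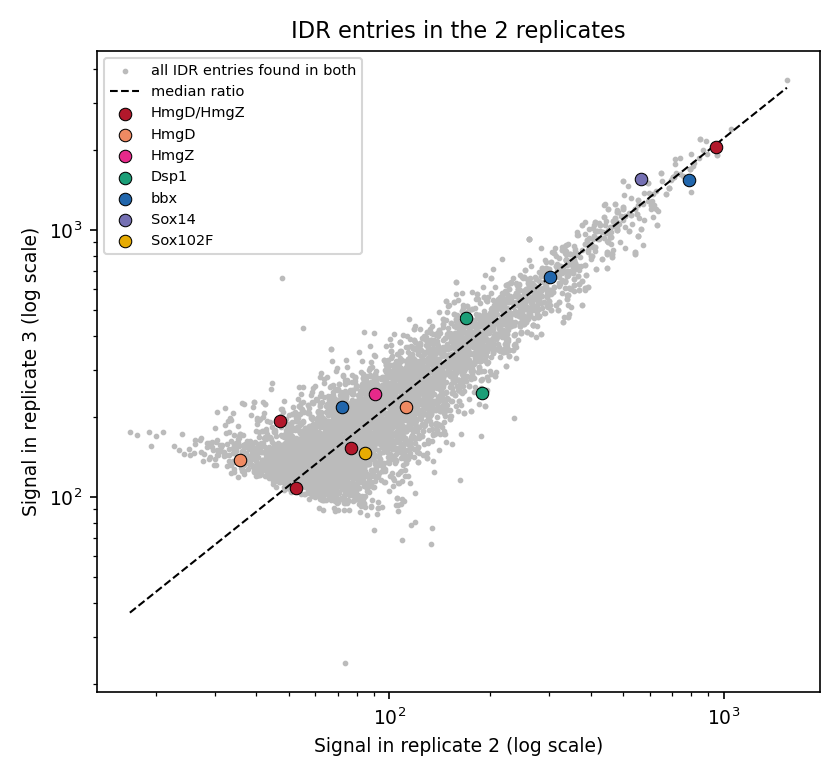
Signal of IDR entries in replicate 2 and replicate 3 (log scales). Grey points are the 5760 entries matched by overlap, the dashed line is the median ratio of 2.21, and coloured points are entries of the listed genes matched by nearest summit. The strongest HmgD/HmgZ and bbx entries lie close to the line, and the Dsp1 promoter entry lies under it.

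The DNA under the summits differed in base composition. The windows of 101 bp at the 15 summits ranged from 18.8% to 60.4% GC with a median of 39.6%, against 36.6% for all IDR summits. The 5 strongest entries had 23.8% (HmgD and HmgZ), 26.7% and 18.8% (bbx), 33.7% (Sox14) and 39.6% (Dsp1 intron), a median of 26.7%, against 44.1% for the other 10. All IDR entries of rank 640 or better had a median of 28.7%, near the median of these 5. The single entries differed: 2.99% of IDR windows had a GC share at or below that of the second bbx entry, and 62.1% at or below that of the Dsp1 intron.

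The homeodomain core TAATTA lay in 2 of 15 windows, both at bbx, against 9.61% of all IDR windows. The TATA box TATAAA lay in 3 of 15 (19.3% of all). These were the strongest HmgD and HmgZ entry and both bbx entries shown above. The windows with TAATTA or TATAAA had between 18.8% and 26.7% GC. The shares of all IDR windows were not matched for GC content, and a link to base composition was not tested. CGATA lay in 3 of 15 (18.6% of all). These were the summit at 21700785 in HmgZ, the one at 21704607 in the overlap of HmgD and HmgZ, and the Dsp1 promoter. The TALE-class motif TGACAG lay in 1 (3.08% of all), at 21700785 in HmgZ, whose nearest TSS is that of HmgD. None of the 15 held TATCGATA of DREF (2.46% of all), which contains CGATA, GGTCACACT of M1BP (1.21%), the palindrome ACATGT (2.37%) or GAGAGAG of GAGA factor (2.44%). Of the 15 windows, 9 held no motif, against 53.3% of all IDR windows, and the Sox14 window was among them.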

How the data were processed

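Entries were taken from the authors' dm6 peak lists in narrowPeak layout, per the notes deposited with them: candidates with background for replicate 2, replicate 3 and the pooled replicates, and the optimal IDR set. The deposited signal of each entry is the authors' score, used as it stands. Which aligner and peak caller were run, and in which version, is not given in the sources used here. No list holds read counts, so the depth is unknown and no interval that needs one is given. The dm3 lists were not used, and 0 per-sample columns were left unmapped.

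Summits, counted from 1, were placed on protein-coding genes of the Ensembl annotation, release 115 (BDGP 6.54), with Python 3.11.15, numpy 2.4.6 and pandas 2.3.3, after every entry was checked to lie within the Release 6 arm lengths. Sequence came from the Release 6 genome (RefSeq). TSSs of all transcripts were used, 19252 distinct positions. Replicate entries were matched by 1 bp of overlap or by nearest summit within 100 bp. Assignment of summits to genes was tested on simulated data.

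The genes, lists, motifs and alternatives were chosen with earlier results of these data known. Named are all 10 genes, other HMG-box genes with an IDR summit at a TSS, genes whose TSS or body meets an IDR summit of the listed genes, and the rank neighbours of the strongest HmgZ and bbx entries. The names of dre4, of Hmg-2, of the other HMG-box genes without a summit, of CCT1 and of RpS23 were added outside that rule. Alternatives changed the window, the TSSs, the IDR subset, the matching and the distance limit, or left out a replicate. With 1 group of 2 replicates there is no test.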

Additional observations from a re-analysis of the deposited data

How the results depend on the processing

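The number of listed genes with an IDR summit at a TSS, 6 of 10, was 3 with the most 5′ TSS alone (Dsp1, bbx and Sox14) and 3 with the 50% of IDR entries of highest signal (HmgD, bbx and Sox14). With that subset the count for the list of 10 other HMG-box genes went from 3 to 0. Without either replicate, the number was 5 to 6, HmgZ being the gene lost from the highest entries of replicate 2. The other alternatives moved no count by over 1.5 times: of 31 alternative values, 28 stayed within it. The window of 250 bp gave 4 genes, without Dsp1 and Sox102F. Merging overlapping entries moved the rank of the strongest entry of Dsp1 from 640 to 616 and of Sox102F from 3494 to 3064. Leaving out the Dsp1 promoter entry, chosen after seeing the data, moved the median log2 ratio of the replicates from -0.02 to -0.01. No paired analysis was possible because there is 1 group. Without read counts, a gene with no entry cannot be told from one with too few reads, and without the control the background under an entry was not measured here. The 500 bp rule leaves out the summit at 604 bp upstream of HmgZ, and the lists hold 30000 entries each, so weaker sites are cut off at that number.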
